A study of Homo sapiens with 12 samples.

Results

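The nuclear-encoded respiratory chain genes are those whose proteins build complexes I to IV and the ATP synthase of the inner mitochondrial membrane, with the assembly factors that carry the same name stems. They were taken by gene symbol: symbols that begin NDUFA, NDUFB, NDUFC, NDUFS or NDUFV, COX and a digit, UQCR or ATP5, and SDHA to SDHD, without pseudogene symbols and symbols with a hyphen. This gave 102 of the 55765 symbols in the count tables, and 96 of the 102 passed the filter on low counts, as did 17727 symbols in all. The cells were T47D, an established line of luminal breast cancer cells with progesterone receptor. The study asked whether genes need PRMT1, a protein arginine methyltransferase, to respond to progestin. There were 4 groups of 3 libraries: siPRMT1 cells with 10 nM of the synthetic progestin R5020 for 6 h, siPRMT1 cells with ethanol (the vehicle) for 6 h, and siCT cells (nonspecific control siRNA) with R5020 and with ethanol for the same time. All groups grew in insulin-containing RPMI with fetal bovine serum and come from 1 cell line. The labels call the libraries biological replicates.

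Complex I takes electrons from NADH and complex II takes them from succinate. Both pass them through ubiquinone to complex III, cytochrome c and complex IV, which reduces oxygen. Complexes I, III and IV pump protons, and the ATP synthase uses the resulting gradient to make ATP. All subunits of complex II are encoded in the nucleus, whereas the other complexes also hold subunits encoded in mitochondrial DNA. Nuclear genes of the chain are known targets of the transcription factors NRF1 and GABPA, which the coactivators of the PGC-1 family assist.

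Total counts ranged from 26783525 to 34120937 per library. PRMT1 itself stood at 6.98, 6.89 and 7.37 CPM in siPRMT1 cells with R5020 and at 7.92, 8.38 and 8.38 CPM in siPRMT1 cells with ethanol, against 40.6, 50.7 and 37.5 CPM in siCT cells with R5020 and 45.4, 37.4 and 29.7 CPM in siCT cells with ethanol, so that all 6 siPRMT1 libraries lay below all 6 siCT libraries. CPM here is TMM-scaled and not corrected for gene length. A pair of siCT libraries stood apart: mitochondrially encoded genes took 59.3% of the counts of siCT ethanol replicate 3 and 52.4% of those of siCT R5020 replicate 1. This share was 31.3% to 38.3% elsewhere. MALAT1, a long RNA kept in the nucleus, was high in both, at 1519 and 948 CPM, against 251 to 486 CPM elsewhere. Counts of members called, in all and by complex, are therefore given with and without this pair. Of the further gene lists below, only the mitochondrially encoded genes are given both ways. Luminal markers were present (GATA3 at 454 to 1175 CPM over the 12 libraries, with 8 of 8 markers tested), and 4 of 15 markers of basal cells, fibroblasts, leukocytes, endothelium and muscle passed the low-count filter. The sum of those 15 was 31.3 to 36.8 CPM in siPRMT1 libraries and 29.6 to 81.9 CPM in siCT libraries. The 2 highest sums belonged to the same pair, and COL1A1, at 28.4 to 78.9 CPM, made up most of each sum. KRT5 had 0.788 to 1.49 CPM in siPRMT1 cells with R5020 and at most 0.125 CPM elsewhere, and was called higher there than in siCT cells with R5020 and in siPRMT1 cells with ethanol. TP63, at 0.146 to 1.3 CPM, was called lower with R5020 in both siRNA groups, and ACTA1, at 0.0819 to 1.31 CPM, lower in siPRMT1 cells in both media. The summed luminal markers were 10690 to 11570 CPM in siPRMT1 cells with R5020 and 14540 to 15030 CPM in siPRMT1 cells with ethanol, against 5268 to 6896 CPM in siCT cells with R5020 and 5803 to 9608 CPM in siCT cells with ethanol, and the part of such shifts in the results below was not tested. KRT18 alone had 5248 to 7734 CPM in siPRMT1 libraries, against 1887 to 3398 CPM in siCT libraries. ESR1, PGR, KRT8 and KRT18 were called higher in siPRMT1 cells in both media, while GATA3 (log2 fold change -0.65) and FOXA1 (log2 fold change -0.56) were called lower in R5020. KRT14, COL1A2, COL3A1, PDGFRB, PTPRC, CD3E, CD68, VWF and CDH5 each stayed under 0.33 CPM in every library, CKM reached at most 0.0551 CPM, and MYH7 had no count.

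Many respiratory chain genes were higher in PRMT1-depleted cells and few were lower. In ethanol, 30 of the 96 members tested rose and 6 fell in siPRMT1 cells relative to siCT cells (edgeR's quasi-likelihood test, Benjamini-Hochberg adjustment over all genes, adjusted p under 0.05). That is 31.2% higher and 6.25% lower, against a background over all 17727 genes of 13.6% higher and 19.2% lower. In R5020, 22 members rose and 4 fell, or 22.9% and 4.17%, against a background of 11.5% and 14.2%. The median log2 fold change of the members was 0.33 in ethanol and 0.25 in R5020, beside -0.07 and -0.03 over all genes tested. Rises came from every complex, and 21 members rose in both media while 4 fell in both. All 6 siPRMT1 libraries lay above all 6 siCT libraries for 27 members (background 9.94% of all genes) and below them for 6 (background 11%).

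**Figure D1:**
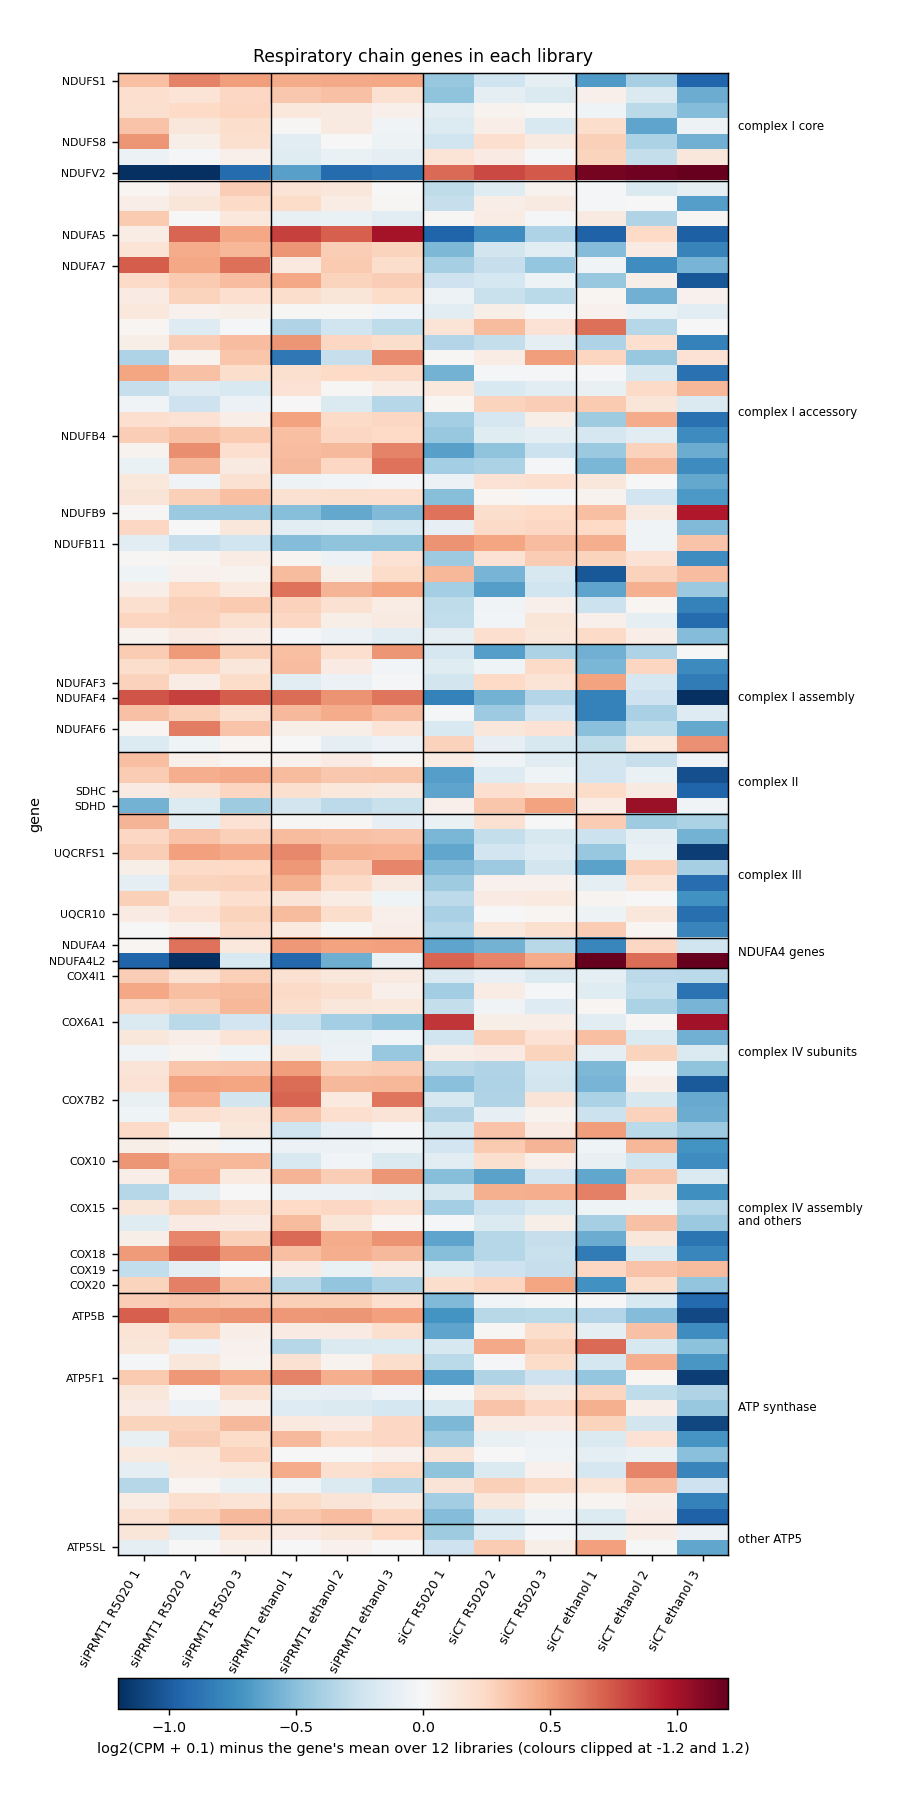
Colour shows log2(CPM + 0.1) of each tested member minus its own mean over the 12 libraries, with libraries in columns grouped by siRNA and treatment and genes in rows grouped by complex and a subset of rows named. Most rows are redder in the 6 siPRMT1 libraries, the mitochondria-rich pair has the lowest member sums (5809.9 and 6810.9 CPM), and NDUFV2, NDUFA4L2, NDUFB11 and NDUFB9 run the other way.

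The summed CPM of all members was 9724.5, 9911.2 and 9862 in siPRMT1 cells with R5020 and 9850.7, 9423.5 and 9333 in siPRMT1 cells with ethanol. It was 6810.9, 8148.2 and 8268.1 in siCT cells with R5020 and 7915.5, 8167.7 and 5809.9 in siCT cells with ethanol. On this TMM-scaled measure every siPRMT1 library was above every siCT library, and the lowest siCT values were those of the mitochondria-rich pair. As unscaled shares of all counts the groups overlapped, with 0.9224% in siPRMT1 R5020 replicate 1 and 0.9353% in siCT ethanol replicate 2. Of counts without mitochondrially encoded genes, the members took 1.494% to 1.651% in siPRMT1 libraries and 0.9344% to 1.399% in siCT libraries. All these values are relative to other RNA of the library, so that more chain mRNA per cell and less of other RNA cannot be told apart.

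Counts of calls depended on the libraries and the scaling. Without the pair, 35 members rose and 12 fell in ethanol (background 20.2% and 24.6%), with a median of 0.19 and 28 of the 30 rises kept. The calls of NDUFA12 (log2 fold change 0.40, adjusted p = 0.0703) and NDUFB5 (log2 fold change 0.50, adjusted p = 0.058) were lost. In R5020, 32 rose and 9 fell without it (background 19.5% and 19.9%), and all 22 rises were kept. With library totals alone in place of TMM, 7 members rose and 3 fell in ethanol (background 7.47% and 9.57%) and 3 rose and 2 fell in R5020 (background 4.2% and 9.51%), shares near the background for the rises. Library totals moved the median over all genes to 0.11 in ethanol, and the members' median under that scaling was 0.46. Of the 36 calls in ethanol (background 32.8% in either direction), leaving out one siPRMT1 ethanol library left 14 higher and 3 lower without replicate 1 (background 8.28% and 12.2%), 17 higher and 4 lower without replicate 2 (background 8.46% and 12.7%) and 15 higher and 4 lower without replicate 3 (background 7.65% and 11.7%). In R5020 the 26 calls (background 25.7% in either direction) became 34 higher and 7 lower without siCT ethanol replicate 3 (background 17.7% and 20.4%). There were 7 higher and 2 lower without siCT R5020 replicate 1 (background 7.81% and 10%), and 8 higher and 2 lower without siCT R5020 replicate 2 (background 7.18% and 10.5%). There were also 7 higher and 2 lower without siPRMT1 R5020 replicate 2 (background 5.96% and 7.43%), and 8 higher and 3 lower without siPRMT1 R5020 replicate 3 (background 6.82% and 8.3%). In R5020 the share of members called higher was thus close to the background without siCT R5020 replicate 1, siCT R5020 replicate 2, siPRMT1 R5020 replicate 2 or siPRMT1 R5020 replicate 3.

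**Figure D2:**
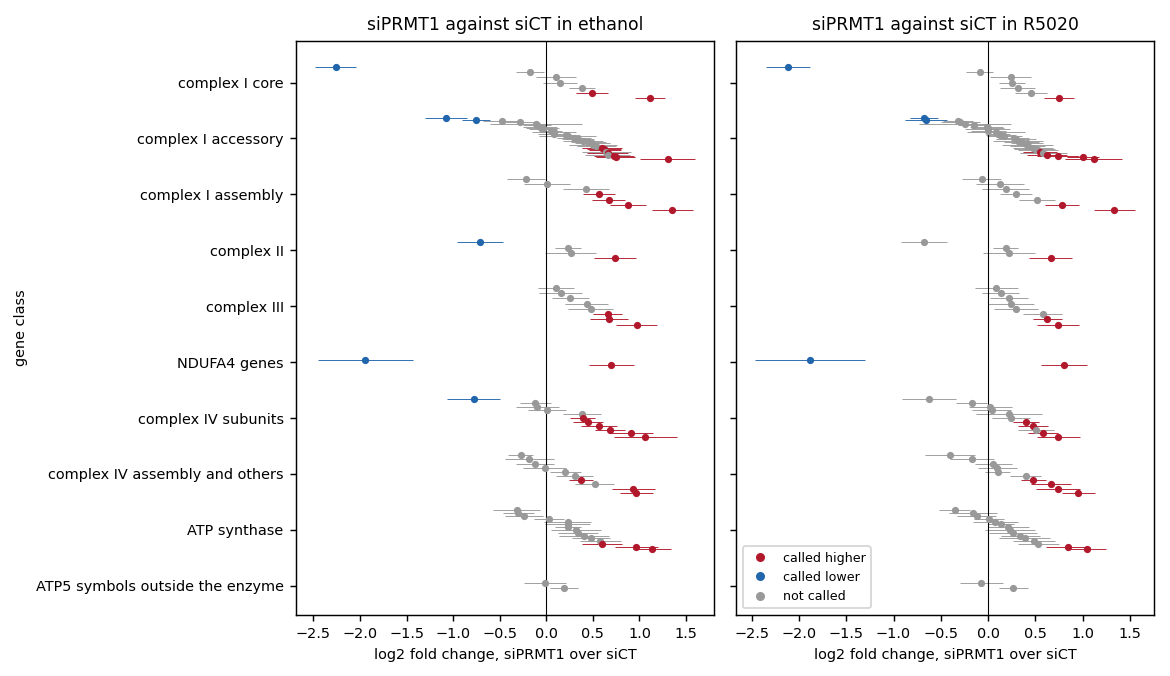
Each point is the log2 fold change of one member, siPRMT1 over siCT, with its SE, in ethanol (left panel) and in R5020 (right panel), by gene class and coloured by the call. Complex III lies wholly to the right of 0 in both panels (8 of 8 genes with all libraries; UQCR11 is below 0 without the mitochondria-rich pair), and the called falls of 1 or more log2 units are NDUFV2, NDUFA4L2 and, in ethanol, NDUFB9.

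Complex I has 7 nuclear core subunits, which hold its flavin and iron-sulfur clusters. Of the 7 tested, 2 rose and 1 fell in ethanol (background 13.6% and 19.2%), and 1 rose and 1 fell in R5020 (background 11.5% and 14.2%). Without the mitochondria-rich pair 3 rose and 1 fell in ethanol (background 20.2% and 24.6%), and 2 rose and 1 fell in R5020 (background 19.5% and 19.9%). With all libraries NDUFS1 rose and NDUFV2 fell in both media. NDUFS1 is the large iron-sulfur subunit of the NADH-oxidising arm. NDUFS1 had 82.9, 83.1 and 83.96 CPM in siPRMT1 cells with ethanol, against 37.97, 46.1 and 31.3 CPM in siCT cells with ethanol, and 78.1, 91.7 and 86.1 CPM in siPRMT1 cells with R5020, against 44.3, 51.5 and 56.5 CPM in siCT cells with R5020. The groups did not overlap in either medium (log2 fold change 1.11 ± 0.16 SE, adjusted p = 3.70e-04 in ethanol, and log2 fold change 0.75 ± 0.16 SE, adjusted p = 0.00487 in R5020). NDUFS8, another iron-sulfur subunit, had 116, 127 and 122 CPM in siPRMT1 cells with ethanol, against 156, 98.3 and 85.8 CPM in siCT cells with ethanol. Its groups overlapped (log2 fold change 0.10 ± 0.22 SE, adjusted p = 0.736), and its fold change had the other sign, -0.05, without the mitochondria-rich pair.

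The promoter of NDUFS1 illustrates the letters discussed below. RefSeq places it at chr2:206159395-206159694 on the minus strand of GRCh38.p14, from 250 bases before the transcription start to 50 after it. Capitals mark a match to the GABPA core CCGGAAG, read on the other strand, and one to the YY1 core ATGGCGG, also on the other strand.
NDUFS1: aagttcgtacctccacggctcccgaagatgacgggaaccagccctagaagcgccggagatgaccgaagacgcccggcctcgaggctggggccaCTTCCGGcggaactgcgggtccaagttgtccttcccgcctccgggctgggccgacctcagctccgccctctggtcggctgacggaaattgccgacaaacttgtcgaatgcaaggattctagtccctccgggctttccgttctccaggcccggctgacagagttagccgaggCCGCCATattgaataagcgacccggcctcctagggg

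NDUFV2, an iron-sulfur subunit of the same arm, gave the largest fall of any member, but at very low counts. It had 0.819, 0.665 and 0.6801 CPM in siPRMT1 cells with ethanol, against 3.11, 3.16 and 4.26 CPM in siCT cells with ethanol, and 0.452, 0.474 and 0.662 CPM in siPRMT1 cells with R5020, against 2.22, 2.399 and 2.31 CPM in siCT cells with R5020, with no overlap (log2 fold change -2.26 ± 0.22 SE, adjusted p = 2.37e-05 in ethanol, and log2 fold change -2.11 ± 0.23 SE, adjusted p = 9.36e-05 in R5020). NDUFV2 held 643 counts over all 12 libraries, while its processed pseudogene NDUFV2P1 held 56010. GENCODE release 29 (GRCh38) lists NDUFV2 at chr18:9102630-9134345, plus strand, and NDUFV2P1 at chr19:53223973-53224879, minus strand. The pseudogene matches the NDUFV2 transcript at 98.1% of 694 aligned bases. Coding bases 84 to 203 of NDUFV2 show how alike they are. The capital marks the single mismatch in these 120 bases.
NDUFV2: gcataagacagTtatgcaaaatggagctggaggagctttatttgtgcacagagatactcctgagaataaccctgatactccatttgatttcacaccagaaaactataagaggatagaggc
NDUFV2P1: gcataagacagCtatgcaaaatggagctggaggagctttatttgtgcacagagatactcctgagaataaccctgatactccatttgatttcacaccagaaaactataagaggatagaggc

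NDUFV2P1 itself had 171, 178 and 177 CPM in siPRMT1 cells with ethanol, against 140, 114 and 55.9 CPM in siCT cells with ethanol, and 180, 188 and 182 CPM in siPRMT1 cells with R5020, against 69.1, 126 and 116 CPM in siCT cells with R5020. It rose in R5020 but missed the threshold with ethanol (log2 fold change 0.82 ± 0.28 SE, adjusted p = 0.04798 in R5020, and log2 fold change 0.76 ± 0.28 SE, adjusted p = 0.0544 in ethanol). Counts of gene and pseudogene added together gave 172, 178 and 178 CPM in siPRMT1 cells with ethanol, against 143, 118 and 60.1 CPM in siCT cells with ethanol. The sum did not fall: it passed the test upward in R5020 (log2 fold change 0.80 ± 0.27 SE, adjusted p = 0.0474) but missed the threshold with ethanol (log2 fold change 0.72 ± 0.27 SE, adjusted p = 0.0585). The fall of NDUFV2 as listed is therefore uncertain, since reads of the gene and of its copy cannot be told apart in these tables.

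**Figure D3:**
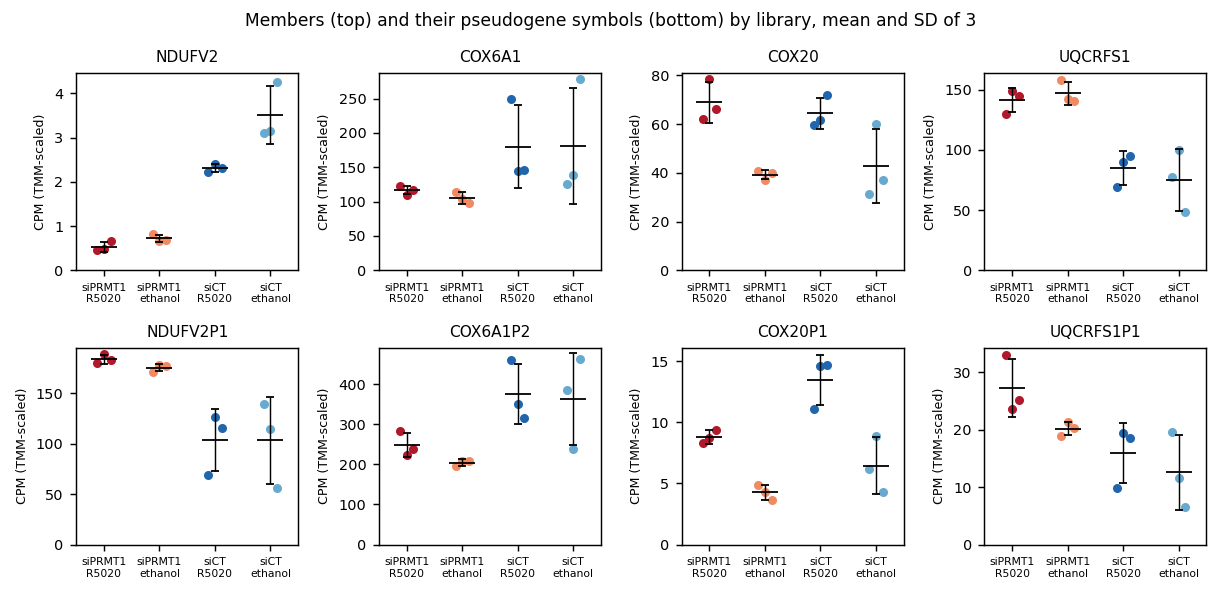
CPM per library (points) with the mean and SD of 3, for 4 members (top row) and a pseudogene symbol of each (bottom row), by group. NDUFV2 lies at 0.452 to 4.26 CPM and is lower in siPRMT1 libraries, while NDUFV2P1 lies at 55.9 to 188.5 CPM and is higher there, and COX20 and COX20P1 lie higher with R5020 in siPRMT1 cells.

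Pseudogene symbols held more than 10% of the member's own count for 13 of the 102 members, and 42 members had any such symbol. Beside NDUFV2 they were NDUFA9, NDUFB8, SDHA, UQCRFS1, UQCRB, COX6A1, COX7A2, COX17, COX20, ATP5C1, ATP5E and ATP5G2. The values of these 13 are uncertain for this reason, and sums of member and pseudogene are given where a result turns on them.

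The 30 accessory subunits of complex I surround the core and are needed for its assembly and stability. In ethanol 7 rose and 2 fell (background 13.6% and 19.2%), and in R5020 5 rose and 2 fell (background 11.5% and 14.2%). The counts without the mitochondria-rich pair were 9 higher and 4 lower in ethanol (background 20.2% and 24.6%). In R5020 they were 9 higher and 3 lower (background 19.5% and 19.9%). NDUFA5, a subunit of the matrix arm, had 16.5, 15.4 and 18.7 CPM in siPRMT1 cells with ethanol, against 4.69, 11 and 4.65 CPM in siCT cells with ethanol, and 9.92, 15.1 and 12.8 CPM in siPRMT1 cells with R5020, against 4.72, 5.51 and 7.15 CPM in siCT cells with R5020. Its groups overlapped in neither medium, and siCT ethanol replicate 2 was the highest siCT library (log2 fold change 1.30 ± 0.30 SE, adjusted p = 0.00621 in ethanol, and log2 fold change 1.12 ± 0.30 SE, adjusted p = 0.0168 in R5020). The call in R5020 was lost without siCT R5020 replicate 1 (adjusted p = 0.056), without siCT R5020 replicate 2 (adjusted p = 0.055) and without siPRMT1 R5020 replicate 2 (adjusted p = 0.073). NDUFA7, also of the matrix arm, had 34.9, 28.97 and 33.2 CPM in siPRMT1 cells with R5020, against 15.9, 17.3 and 15.2 CPM in siCT cells with R5020 (log2 fold change 1.00 ± 0.17 SE, adjusted p = 0.001602). In ethanol the difference was smaller, with 22.8, 26.1 and 24.3 CPM in siPRMT1 cells with ethanol, against 20.4, 12.5 and 14.2 CPM in siCT cells with ethanol (log2 fold change 0.63, adjusted p = 0.01502). NDUFB4, of the membrane arm, had 378, 351 and 349 CPM in siPRMT1 cells with ethanol, against 257, 270 and 175 CPM in siCT cells with ethanol (log2 fold change 0.62, adjusted p = 0.0193). The NDUFB4 call was lost without any one of the 3 siPRMT1 ethanol libraries (adjusted p = 0.072, 0.053 and 0.054), with only the libraries compared (adjusted p = 0.081) and with library totals (adjusted p = 0.138). The other accessory subunits that rose in ethanol were NDUFA6, NDUFA8, NDUFA12 and NDUFB5, with log2 fold changes of 0.60 to 0.74. NDUFA6 and NDUFB5 also rose in R5020.

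The accessory subunits that fell with all libraries both sit in the membrane arm. NDUFB9 had 94.98, 88.6 and 94.1 CPM in siPRMT1 cells with ethanol, against 175, 146 and 264 CPM in siCT cells with ethanol, and 137, 99.3 and 99.5 CPM in siPRMT1 cells with R5020, against 213, 157 and 160 CPM in siCT cells with R5020. All siPRMT1 libraries were below all siCT libraries (log2 fold change -1.08 ± 0.22 SE, adjusted p = 0.00357 in ethanol, and log2 fold change -0.66 ± 0.22 SE, adjusted p = 0.0432 in R5020). Its highest siCT values were those of the mitochondria-rich pair, 264 and 213 CPM. Without the pair the log2 fold change was -0.78 in ethanol and -0.49 in R5020, and both were called. With all libraries the call in R5020 was lost in 8 of the 12 leave-one-out fits, with log2 fold changes of -0.50 to -0.74. NDUFB11 had 132, 136 and 136 CPM in siPRMT1 cells with ethanol, against 256, 184 and 241 CPM in siCT cells with ethanol, and 172, 156 and 161 CPM in siPRMT1 cells with R5020, against 276, 264 and 245 CPM in siCT cells with R5020, again without overlap (log2 fold change -0.76 ± 0.15 SE, adjusted p = 0.00303 in ethanol, and log2 fold change -0.68 ± 0.15 SE, adjusted p = 0.00648 in R5020). With library totals the NDUFB11 call was lost in both media (log2 fold change -0.56, adjusted p = 0.103 in ethanol, and log2 fold change -0.64, adjusted p = 0.0802 in R5020). GENCODE gives NDUFB9 21.0% of its exonic bases in common with genes on the other strand (MTSS1 and TATDN1), and NDUFB11 44.9% in common with RBM10. RBM10 had a log2 fold change of -0.71 in ethanol and -0.43 in R5020, and MTSS1 one of -1.37 and 0.23. The strand setting of the counting is not given in the sources used here, so their part in these falls was not tested. Such overlaps also concern members that rose. Over 10% of exonic bases were shared on the same strand for 18 members and on the opposite strand for 20. On the same strand the share was 32.3% for NDUFA7, 25.6% for COX15 and 17.6% for COX17. NDUFS1 shared 11.7% on the opposite strand. The part of these overlaps was not tested either. The promoter of NDUFB11, chrX:47144653-47144952 on the minus strand, is shown as that of a member that fell. Capitals mark its YY1 core.
NDUFB11: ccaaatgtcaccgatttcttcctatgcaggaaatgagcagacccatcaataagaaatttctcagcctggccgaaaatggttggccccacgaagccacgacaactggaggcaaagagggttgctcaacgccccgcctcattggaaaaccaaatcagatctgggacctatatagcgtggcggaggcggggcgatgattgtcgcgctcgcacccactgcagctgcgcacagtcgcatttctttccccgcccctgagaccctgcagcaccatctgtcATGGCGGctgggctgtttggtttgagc

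The complex I assembly factors matched by name were 7, of which 4 rose in ethanol (NDUFAF1, NDUFAF4, NDUFAF5 and NDUFAF6), 2 rose in R5020 (NDUFAF1 and NDUFAF4) and none fell. The background was 13.6% higher and 19.2% lower in ethanol, and 11.5% and 14.2% in R5020. The counts without the mitochondria-rich pair were 4 higher and 0 lower in ethanol (background 20.2% and 24.6%). In R5020 they were 3 higher and 0 lower (background 19.5% and 19.9%). NDUFAF4, an early assembly factor that works with NDUFAF3, showed the highest fold change of any member in both media. It had 57.5, 52.5 and 56.3 CPM in siPRMT1 cells with ethanol, against 20.4, 30.3 and 14.1 CPM in siCT cells with ethanol, and 60.8, 63.5 and 59.9 CPM in siPRMT1 cells with R5020, against 20.5, 24.3 and 28.1 CPM in siCT cells with R5020. The lowest siPRMT1 library was well above the highest siCT library (log2 fold change 1.35 ± 0.22 SE, adjusted p = 9.10e-04 in ethanol, and log2 fold change 1.34 ± 0.22 SE, adjusted p = 0.00127 in R5020), and the call held under all 22 alternatives in both media. NDUFAF5, which hydroxylates an arginine of NDUFS7, had 4.26, 4.44 and 4.22 CPM in siPRMT1 cells with ethanol, against 1.799, 2.45 and 2.898 CPM in siCT cells with ethanol (log2 fold change 0.87, adjusted p = 0.00514). NDUFAF3 had 37.4, 39.2 and 40.8 CPM in siPRMT1 cells with ethanol, against 57.6, 35.8 and 23.02 CPM in siCT cells with ethanol. Its groups overlapped, and its log2 fold change was 0.01 with the pair and -0.25 without it. The NDUFAF4 promoter, chr6:96897842-96898141 on the minus strand, holds the NRF1 core GCATGCG and the GABPA core, in capitals, the NRF1 core read on the other strand.
NDUFAF4: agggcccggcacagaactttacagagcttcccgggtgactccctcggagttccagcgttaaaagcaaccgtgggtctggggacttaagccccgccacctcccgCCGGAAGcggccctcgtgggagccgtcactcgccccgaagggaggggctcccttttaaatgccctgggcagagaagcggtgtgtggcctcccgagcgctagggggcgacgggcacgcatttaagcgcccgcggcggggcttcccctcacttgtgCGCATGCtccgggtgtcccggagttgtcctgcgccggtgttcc

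Complex II oxidises succinate with 4 subunits, and they did not move together. In ethanol 1 rose and 1 fell (background 13.6% and 19.2%), and in R5020 1 rose and none fell (background 11.5% and 14.2%). Without the mitochondria-rich pair 2 rose and 1 fell in ethanol (background 20.2% and 24.6%), and 1 rose and 1 fell in R5020 (background 19.5% and 19.9%). SDHB, the iron-sulfur subunit, had 127, 122 and 123 CPM in siPRMT1 cells with ethanol, against 83.4, 92.8 and 47.1 CPM in siCT cells with ethanol, and 120, 132 and 134 CPM in siPRMT1 cells with R5020, against 61.8, 87.8 and 94.6 CPM in siCT cells with R5020 (log2 fold change 0.74, adjusted p = 0.0247 in ethanol, and log2 fold change 0.66, adjusted p = 0.0454 in R5020). All siPRMT1 libraries were above all siCT libraries. SDHD, a membrane anchor, had 50.02, 46.97 and 48.2 CPM in siPRMT1 cells with ethanol, against 61.8, 119 and 56.6 CPM in siCT cells with ethanol, and 39.3, 52.1 and 43.3 CPM in siPRMT1 cells with R5020, against 60.8, 73.4 and 81.5 CPM in siCT cells with R5020. All siPRMT1 libraries were below all siCT libraries, and SDHD passed the test in ethanol (log2 fold change -0.71, adjusted p = 0.0389) and not in R5020 (log2 fold change -0.68, adjusted p = 0.0548). The SDHD value in ethanol depended on siCT ethanol replicate 2, without which its log2 fold change was -0.30 (adjusted p = 0.136). That call was lost in 6 of the 12 leave-one-out fits, with library totals (adjusted p = 0.303), with only the libraries compared (adjusted p = 0.114) and with the replicate block (adjusted p = 0.0508). Without the mitochondria-rich pair SDHD was called lower in both media (log2 fold change -0.90, adjusted p = 0.0055 in ethanol, and log2 fold change -0.78, adjusted p = 0.0138 in R5020). SDHC, the other anchor, had 314, 300 and 296 CPM in siPRMT1 cells with ethanol, against 320, 296 and 142 CPM in siCT cells with ethanol (log2 fold change 0.26, adjusted p = 0.487). SDHA, the flavoprotein, was not called with all libraries (log2 fold change 0.23 in ethanol). Without the pair SDHA was called higher in ethanol (log2 fold change 0.32, adjusted p = 0.0329) and not called in R5020 (log2 fold change 0.26, adjusted p = 0.0764).

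Complex III passes electrons from ubiquinol to cytochrome c. All 8 matched genes had positive log2 fold changes in both media, 0.10 to 0.97 in ethanol and 0.09 to 0.74 in R5020. Without the mitochondria-rich pair UQCR11 had -0.09 in ethanol and -0.05 in R5020, and UQCRC1 had 0.003 in ethanol. UQCRC2, UQCRFS1 and UQCRB rose in ethanol, and UQCRC2 and UQCRFS1 in R5020. That is 3 higher and 0 lower in ethanol (background 13.6% and 19.2%), and 2 and 0 in R5020 (background 11.5% and 14.2%). These counts were the same without the pair, against a background of 20.2% and 24.6% in ethanol, and 19.5% and 19.9% in R5020. UQCRFS1, the Rieske iron-sulfur protein, had 158, 142 and 141 CPM in siPRMT1 cells with ethanol, against 77.3, 100 and 48.2 CPM in siCT cells with ethanol, and 130, 149 and 145 CPM in siPRMT1 cells with R5020, against 68.9, 90.3 and 95.3 CPM in siCT cells with R5020. The siPRMT1 and siCT libraries did not overlap (log2 fold change 0.97 ± 0.22 SE, adjusted p = 0.00635 in ethanol, and log2 fold change 0.74 ± 0.22 SE, adjusted p = 0.0279 in R5020). With the counts of its pseudogenes added the result was near the same (log2 fold change 0.93 ± 0.23 SE, adjusted p = 0.00837 in ethanol, and log2 fold change 0.74 ± 0.23 SE, adjusted p = 0.0288 in R5020). The UQCRFS1 call in ethanol was lost with library totals (log2 fold change 1.07, adjusted p = 0.0742). UQCRB, which binds ubiquinone, was called alone (log2 fold change 0.67, adjusted p = 0.0237 in ethanol) and not with its pseudogenes added (log2 fold change 0.61 ± 0.22 SE, adjusted p = 0.0505 in ethanol). UQCRC2, a core protein, had 201, 197 and 195 CPM in siPRMT1 cells with ethanol, against 129, 142 and 104 CPM in siCT cells with ethanol (log2 fold change 0.66, adjusted p = 0.00654). UQCR10, a small subunit, had 407, 364 and 326 CPM in siPRMT1 cells with ethanol, against 300, 346 and 167 CPM in siCT cells with ethanol. Its groups overlapped and it was not called (log2 fold change 0.43, adjusted p = 0.168).

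Complex IV, cytochrome c oxidase, gave 11 tested subunit genes, of which 6 rose and 1 fell in ethanol, and 4 rose and none fell in R5020. The background was 13.6% higher and 19.2% lower in ethanol, and 11.5% and 14.2% in R5020. With the mitochondria-rich pair left out, 6 rose and 1 fell in ethanol (background 20.2% and 24.6%). In R5020, 5 rose and 1 fell without it (background 19.5% and 19.9%). COX4I1, the ubiquitous form of subunit IV, had 310, 300 and 294 CPM in siPRMT1 cells with ethanol, against 253, 219 and 218 CPM in siCT cells with ethanol, and 334, 310 and 332 CPM in siPRMT1 cells with R5020, against 241, 254 and 242 CPM in siCT cells with R5020, a small difference without overlap (log2 fold change 0.39 ± 0.14 SE, adjusted p = 0.0427 in ethanol, and log2 fold change 0.40 ± 0.14 SE, adjusted p = 0.0441 in R5020). COX7B, a structural subunit, had 199, 164 and 165 CPM in siPRMT1 cells with ethanol, against 84.98, 132 and 62.4 CPM in siCT cells with ethanol (log2 fold change 0.91, adjusted p = 0.00977). COX5A, COX5B and COX7A2 rose by log2 fold changes of 0.57, 0.44 and 0.68 in ethanol. With its pseudogenes added COX7A2 was still called (log2 fold change 0.63 ± 0.17 SE, adjusted p = 0.0123 in ethanol). NDUFA4, named as a complex I gene but now known as a complex IV subunit, had 436, 424 and 428 CPM in siPRMT1 cells with ethanol, against 177, 360 and 257 CPM in siCT cells with ethanol, and 308, 478 and 331 CPM in siPRMT1 cells with R5020, against 196, 205 and 241 CPM in siCT cells with R5020. It rose in both media (log2 fold change 0.70, adjusted p = 0.0412 in ethanol, and log2 fold change 0.80, adjusted p = 0.02801 in R5020). Its groups overlapped in neither medium, and in ethanol siCT replicate 1 was the lowest library. The call in ethanol was lost under 10 of 22 alternatives, 8 of them leave-one-out fits. Without siCT ethanol replicate 1 the log2 fold change in ethanol was 0.47 (adjusted p = 0.122).

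Forms of complex IV subunits known from other tissues were at or near 0. COX6A2, COX7A1 and COX8C had no count in any library. COX4I2, the hypoxia-linked form of subunit IV, had at most 2 counts per library and COX6B2, the testis form, 1 to 4. COX7B2 was called higher in ethanol, with 0.682, 0.426 and 0.653 CPM in siPRMT1 cells with ethanol, against 0.273, 0.325 and 0.219 CPM in siCT cells with ethanol (log2 fold change 1.06, adjusted p = 0.0302), and not in R5020 (log2 fold change 0.22, adjusted p = 0.672). The call of COX7B2 was lost under 9 of 22 alternatives, among them DESeq2 (adjusted p = 0.062), and without siCT ethanol replicate 1, siPRMT1 ethanol replicate 1 or siPRMT1 ethanol replicate 3. NDUFA4L2, the hypoxia-induced relative of NDUFA4, fell at a low level, with 0.164, 0.239 and 0.381 CPM in siPRMT1 cells with ethanol, against 1.09, 0.708 and 1.31 CPM in siCT cells with ethanol, and 0.162, 0 and 0.347 CPM in siPRMT1 cells with R5020, against 0.727, 0.662 and 0.593 CPM in siCT cells with R5020 (log2 fold change -1.94, adjusted p = 0.0118 in ethanol, and log2 fold change -1.88, adjusted p = 0.0305 in R5020). Its groups did not overlap, and its call was lost without siPRMT1 ethanol replicate 1 in ethanol, and in R5020 without siCT R5020 replicate 1 or 2 or without siPRMT1 R5020 replicate 1 or 2.

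COX6A1, the form of subunit VIa of most tissues, was the complex IV subunit that fell in ethanol, with 115, 104 and 97.7 CPM in siPRMT1 cells with ethanol, against 126, 139 and 278 CPM in siCT cells with ethanol, and 122, 110 and 117 CPM in siPRMT1 cells with R5020, against 250, 144 and 146 CPM in siCT cells with R5020. The libraries did not overlap, and the highest siCT values, 278 and 250 CPM, belonged to the mitochondria-rich pair (log2 fold change -0.78, adjusted p = 0.0495 in ethanol, and log2 fold change -0.63, adjusted p = 0.117 in R5020). The call in ethanol was lost under 15 of 22 alternatives, among them 9 of the 12 leave-one-out fits. Without siCT ethanol replicate 3 the log2 fold change in ethanol was -0.27 (adjusted p = 0.331). Without the pair it was -0.33 in ethanol and -0.30 in R5020, called in both. The pseudogene COX6A1P2 (GRCh38 chr6:37044860-37045189, plus strand), which matches COX6A1 (chr12:120438090-120440742, plus strand) at 98.8% of 330 bases, held more counts than COX6A1, and fell in ethanol as well (log2 fold change -0.83, adjusted p = 0.0158). With pseudogene counts added COX6A1 fell with ethanol as the medium (log2 fold change -0.81 ± 0.24 SE, adjusted p = 0.0203) and was not called in R5020 (log2 fold change -0.60 ± 0.24 SE, adjusted p = 0.076). Coding bases 4 to 123 of COX6A1 and the same stretch of the pseudogene follow, with their 4 mismatches in capitals.
COX6A1: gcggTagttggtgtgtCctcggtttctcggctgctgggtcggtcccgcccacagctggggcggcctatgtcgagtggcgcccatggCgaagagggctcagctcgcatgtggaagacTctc
COX6A1P2: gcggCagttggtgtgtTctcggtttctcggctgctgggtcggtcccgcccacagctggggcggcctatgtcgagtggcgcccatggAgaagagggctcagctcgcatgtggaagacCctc

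Of the 10 complex IV assembly factors and related genes, 3 rose in ethanol (COX15, COX17 and COX18) and 4 in R5020 (the same 3 and COX11), and none fell with all libraries. The background was 13.6% higher and 19.2% lower in ethanol, and 11.5% and 14.2% in R5020. With the mitochondria-rich pair left out, 3 rose and 1 fell in ethanol (background 20.2% and 24.6%). In R5020, 5 rose and 1 fell without it (background 19.5% and 19.9%), and COX14 was the gene that fell in both media. COX18, which inserts the mitochondrially encoded subunit COX2 into the inner membrane, had 17.2, 18.1 and 17.5 CPM in siPRMT1 cells with ethanol, against 7.44, 11.8 and 7.71 CPM in siCT cells with ethanol, and 19.1, 21.6 and 19.5 CPM in siPRMT1 cells with R5020, against 9.37, 10.5 and 11.1 CPM in siCT cells with R5020. Its siPRMT1 libraries were all above its siCT libraries (log2 fold change 0.97 ± 0.17 SE, adjusted p = 0.00164 in ethanol, and log2 fold change 0.96 ± 0.17 SE, adjusted p = 0.002097 in R5020). The COX18 call in R5020 was lost with library totals (log2 fold change 0.98, adjusted p = 0.054). COX15, which acts in the synthesis of heme A, had 76.9, 77.8 and 75.2 CPM in siPRMT1 cells with ethanol, against 63.2, 63.01 and 51.7 CPM in siCT cells with ethanol (log2 fold change 0.37, adjusted p = 0.0447), and both this call and that of COX4I1 in ethanol were lost under 13 of 22 alternatives. COX17, a copper chaperone, had 21.5, 18.3 and 19.5 CPM in siPRMT1 cells with ethanol, against 8.86, 14.7 and 7.27 CPM in siCT cells with ethanol (log2 fold change 0.94, adjusted p = 0.00899). Its pseudogene COX17P1 held 434% of its count, and the sum of both did not pass the test (log2 fold change 0.66 ± 0.25 SE, adjusted p = 0.0583 in ethanol, and log2 fold change 0.32 ± 0.25 SE, adjusted p = 0.365 in R5020). The COX18 promoter, chr4:73069667-73069966 on the minus strand, is shown because it holds the NRF1 core on both strands, in a palindrome, and the ESRRA core AAGGTCA, in capitals.
COX18: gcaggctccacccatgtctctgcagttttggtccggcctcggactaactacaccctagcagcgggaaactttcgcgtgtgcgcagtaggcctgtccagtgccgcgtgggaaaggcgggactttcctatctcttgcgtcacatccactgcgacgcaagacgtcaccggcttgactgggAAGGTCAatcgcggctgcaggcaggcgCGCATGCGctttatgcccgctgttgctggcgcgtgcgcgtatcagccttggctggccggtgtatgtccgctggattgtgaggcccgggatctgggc

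Of the 15 ATP synthase genes tested, 3 rose in ethanol (ATP5B, ATP5F1 and ATP5O), 2 in R5020 (ATP5B and ATP5F1) and none fell with all libraries. The shares that rose, 20% in ethanol and 13.3% in R5020, stood near the background of 13.6% and 11.5%. The background for falls was 19.2% in ethanol and 14.2% in R5020. Without the mitochondria-rich pair 4 rose and 3 fell in ethanol (background 20.2% and 24.6%). In R5020, 4 rose and 1 fell without it (background 19.5% and 19.9%). ATP5B, the catalytic beta subunit, had 1224, 1232 and 1194 CPM in siPRMT1 cells with ethanol, against 665, 593 and 402 CPM in siCT cells with ethanol, and 1398, 1218 and 1240 CPM in siPRMT1 cells with R5020, against 518, 674 and 682 CPM in siCT cells with R5020. Each siPRMT1 library exceeded each siCT library (log2 fold change 1.14 ± 0.21 SE, adjusted p = 0.00177 in ethanol, and log2 fold change 1.04 ± 0.21 SE, adjusted p = 0.00347 in R5020). Its log2 fold change without the pair was 0.96 in ethanol and 0.93 in R5020. The ATP5B call in R5020 was lost with library totals (log2 fold change 1.05, adjusted p = 0.0643). ATP5B alone made up 1194 to 1398 of the 9333 to 9911.2 CPM that the members summed to in siPRMT1 libraries. ATP5F1, subunit b of the peripheral stalk, had 164, 147 and 155 CPM in siPRMT1 cells with ethanol, against 78.8, 110 and 49.6 CPM in siCT cells with ethanol, and 135, 156 and 148 CPM in siPRMT1 cells with R5020, against 68.4, 84.3 and 91.5 CPM in siCT cells with R5020 (log2 fold change 0.97, adjusted p = 0.00762 in ethanol, and log2 fold change 0.85, adjusted p = 0.01795 in R5020). The ATP5F1 call in R5020 was lost without siCT R5020 replicate 1 (adjusted p = 0.062), siPRMT1 R5020 replicate 2 (adjusted p = 0.065) or siPRMT1 R5020 replicate 3 (adjusted p = 0.054), and with library totals (adjusted p = 0.169). ATP5O, the oligomycin sensitivity protein that links the stalk to the catalytic head, had 28.2, 29.1 and 26.9 CPM in siPRMT1 cells with ethanol, against 20.01, 24.01 and 11.4 CPM in siCT cells with ethanol (log2 fold change 0.60, adjusted p = 0.04997). ATP5S and ATP5SL carry the stem but are not subunits of the enzyme, and neither was called. ATP5SL had 16.4, 16.98 and 16.4 CPM in siPRMT1 cells with ethanol, against 23, 16.3 and 10.6 CPM in siCT cells with ethanol. ATP5L2, the third such symbol, had at most 1 count.

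**Figure D4:**
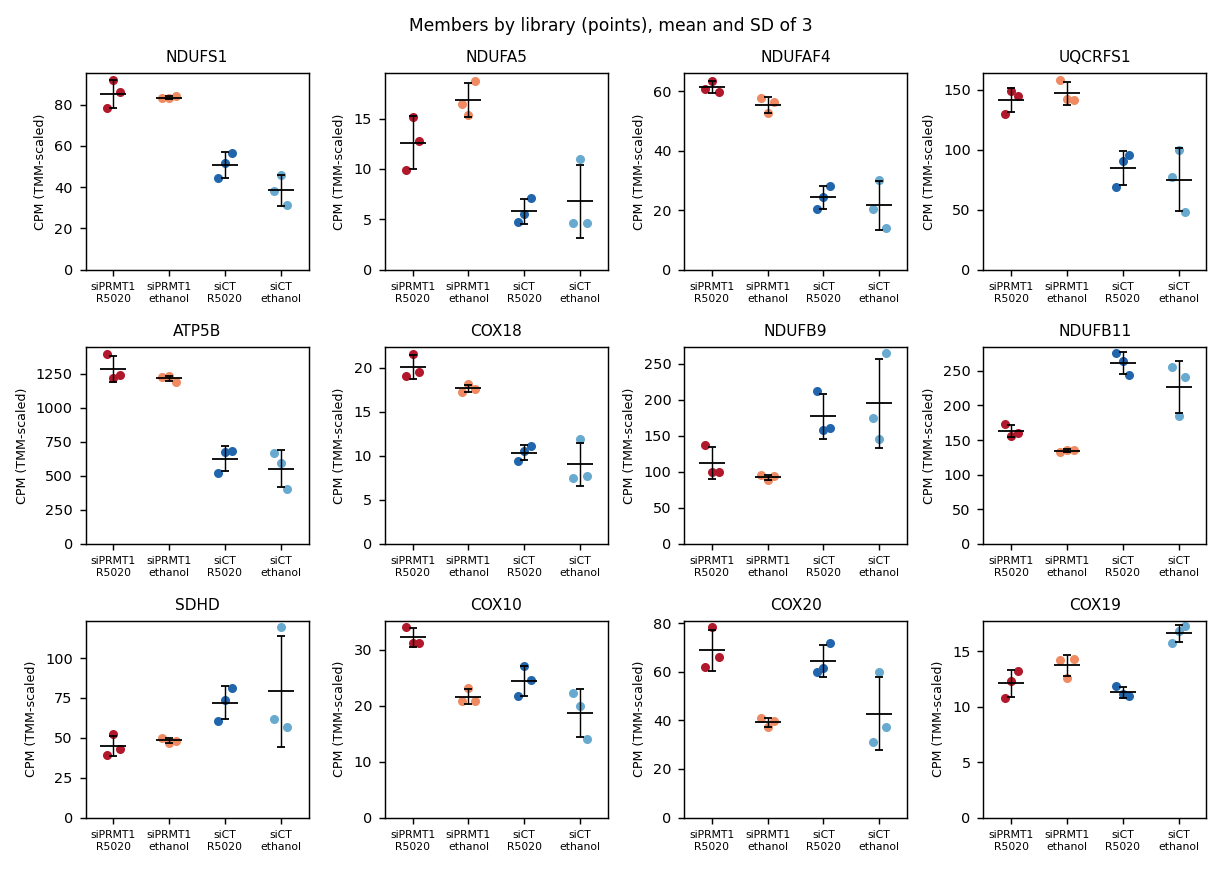
CPM per library (points) with the mean and SD of 3, by group, for 12 members. NDUFS1, NDUFA5, NDUFAF4, UQCRFS1, ATP5B and COX18 lie higher in both siPRMT1 groups, NDUFB9, NDUFB11 and SDHD lie lower, COX10 and COX20 lie higher with R5020 in siPRMT1 cells, and COX19 lies lower with R5020 in siCT cells.

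With all libraries in 1 fit, few of these genes were called after 6 h of R5020, and the number in siPRMT1 cells depended on the fit. In siPRMT1 cells 2 members rose and none fell, against a background of 9.3% higher and 6.08% lower, and in siCT cells none rose and COX19 fell, against 7.59% higher and 5.43% lower. With library totals alone no member was called, against a background of 5.06% higher and 6.58% lower in siPRMT1 cells and 4.9% and 4.01% in siCT cells. Without the mitochondria-rich pair 4 rose and 1 fell in siPRMT1 cells (background 15.8% and 13.5%), and 1 rose and 1 fell in siCT cells (background 11% and 9.15%). With only the 6 siPRMT1 libraries in the fit 19 members were called higher and 8 lower (background 23.2% and 21.6%), and with voom quality weights 18 higher and 4 lower (background 23.7% and 22.5%). COX20, COX10 and COX19, the members called with all libraries, are complex IV assembly factors. COX20, a chaperone of the subunit COX2, had 62.1, 78.3 and 66.2 CPM in siPRMT1 cells with R5020, against 40.9, 37.2 and 39.7 CPM in siPRMT1 cells with ethanol, with no overlap (log2 fold change 0.81 ± 0.21 SE, adjusted p = 0.0163). In siCT cells it had 59.8, 61.7 and 71.8 CPM with R5020 and 31.2, 59.9 and 37.2 CPM with ethanol, and siCT ethanol replicate 2 was as high as the R5020 libraries (log2 fold change 0.59 ± 0.21 SE, adjusted p = 0.0834). COX20 with its pseudogenes COX20P1 and COX20P2 added passed the test in both (log2 fold change 0.85 ± 0.20 SE, adjusted p = 0.0112 in siPRMT1 cells, and log2 fold change 0.67 ± 0.20 SE, adjusted p = 0.04599 in siCT cells). COX20 shares 72.0% of its exonic bases with HNRNPU on the other strand, whose log2 fold change was 0.21 in siPRMT1 cells and 0.35 in siCT cells, not called in either. The call of COX20 was lost without siPRMT1 ethanol replicate 2 (adjusted p = 0.069), without siPRMT1 ethanol replicate 3 (adjusted p = 0.056) and without siPRMT1 R5020 replicate 2 (adjusted p = 0.072).

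COX10, which makes heme O, the precursor of heme A, had 34.1, 31.2 and 31.2 CPM in siPRMT1 cells with R5020, against 20.8, 23.1 and 20.9 CPM in siPRMT1 cells with ethanol (log2 fold change 0.57 ± 0.16 SE, adjusted p = 0.0301). In siCT cells it had 21.6, 27.02 and 24.6 CPM with R5020 and 22.2, 19.9 and 14 CPM with ethanol, which overlapped (log2 fold change 0.38, adjusted p = 0.165). The COX10 call was lost when any one of the 6 siPRMT1 libraries was left out, with adjusted p-values of 0.064 to 0.115. COX19, a copper-binding factor of the intermembrane space, had 11.9, 11.2 and 10.9 CPM in siCT cells with R5020, against 15.8, 16.9 and 17.3 CPM in siCT cells with ethanol (log2 fold change -0.56 ± 0.13 SE, adjusted p = 0.01198). In siPRMT1 cells it had 10.8, 12.3 and 13.2 CPM with R5020 and 14.2, 12.6 and 14.3 CPM with ethanol, which overlapped (log2 fold change -0.18, adjusted p = 0.468). The COX19 call was lost without siCT R5020 replicate 2 (adjusted p = 0.058) or replicate 3 (adjusted p = 0.059). NDUFAF6 came close, with 13.6, 16.96 and 17.4 CPM in siCT cells with R5020, against 10.8, 12.5 and 10.1 CPM in siCT cells with ethanol (log2 fold change 0.52, adjusted p = 0.0607).

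No member passed the test of a different R5020 response in siPRMT1 and siCT cells (interaction, edgeR): 0 of 96 members were called and 0 had an unadjusted p under 0.05. DESeq2 also called 0. The background was 0.0451% called higher and 0.0338% called lower, or 0.079% in either direction, and 720 of 17727 genes had an unadjusted p under 0.05. The smallest p-values were those of COX19 (interaction 0.38 ± 0.19 SE), COX7B2 (interaction -0.84 ± 0.49 SE), NDUFS1 (interaction -0.37 ± 0.22 SE) and NDUFA7 (interaction 0.37 ± 0.24 SE), on the log2 scale. Calls of COX20 and COX10 in siPRMT1 cells alone, and of COX19 in siCT cells alone, are thus no shown difference between the siRNAs.

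The genes that serve the chain without carrying its name stems were mixed. Of 15 regulators of mitochondrial biogenesis tested, 6 rose and none fell with siPRMT1 in ethanol, and 2 rose in R5020. The background over all genes was 13.6% higher and 19.2% lower in ethanol, and 11.5% and 14.2% in R5020. PPARGC1A, a coactivator of mitochondrial genes, had 4.696, 4.18 and 3.97 CPM in siPRMT1 cells with ethanol, against 1.96, 2.18 and 1.37 CPM in siCT cells with ethanol (log2 fold change 1.2 ± 0.22 SE, adjusted p = 0.00175). Its relative PPARGC1B had 10.6, 11.74 and 10.8 CPM in siPRMT1 cells with ethanol, against 5.32, 4.897 and 6.01 CPM in siCT cells with ethanol, and 14.8, 14.1 and 12.6 CPM in siPRMT1 cells with R5020, against 9.69, 9.35 and 8.37 CPM in siCT cells with R5020 (log2 fold change 1.03, adjusted p = 3.00e-04 in ethanol, and log2 fold change 0.60, adjusted p = 0.0083 in R5020). TFAM, which packages mitochondrial DNA and takes part in starting its transcription, had 31.7, 29.4 and 33.9 CPM in siPRMT1 cells with ethanol, against 17.01, 25.7 and 14.6 CPM in siCT cells with ethanol (log2 fold change 0.72, adjusted p = 0.0131). TFB1M and TFB2M, an rRNA methyltransferase and a transcription factor of the organelle, rose in ethanol by log2 fold changes of 1.05 and 0.75, and MYC by 0.40. NRF1 and GABPA themselves were not called (log2 fold changes -0.25 and 0.37).

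With R5020, 3 of the 15 regulators rose and 1 fell in siPRMT1 cells, and 4 rose and 1 fell in siCT cells. The background over all genes was 9.3% higher and 6.08% lower in siPRMT1 cells, and 7.59% and 5.43% in siCT cells. PPARGC1A fell to 0.84, 0.765 and 0.567 CPM in siPRMT1 cells with R5020, against 4.696, 4.18 and 3.97 CPM in siPRMT1 cells with ethanol (log2 fold change -2.56 ± 0.24 SE, adjusted p = 6.49e-06). In siCT cells it fell to 0.404, 0.579 and 0.625 CPM with R5020, against 1.96, 2.18 and 1.37 CPM with ethanol (log2 fold change -1.77 ± 0.26 SE, adjusted p = 3.23e-04). ESRRA, a nuclear receptor that works with PPARGC1A, rose in both (log2 fold change 0.73, adjusted p = 0.0216 in siPRMT1 cells, and log2 fold change 1.08, adjusted p = 0.00229 in siCT cells). PPRC1 also rose in both, NRF1 rose in siPRMT1 cells, and PPARGC1B and MYC rose in siCT cells.

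**Figure D5:**
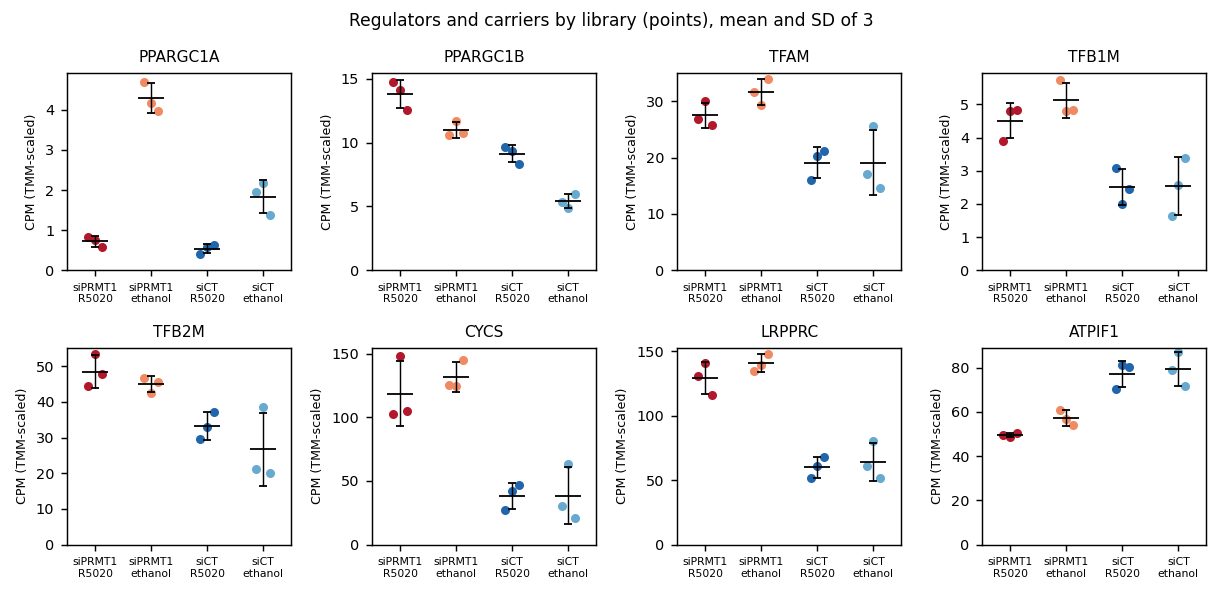
CPM per library (points) with the mean and SD of 3, by group, for regulators, cytochrome c (CYCS), LRPPRC and ATPIF1. PPARGC1A is low in both R5020 groups, CYCS and LRPPRC are higher in all siPRMT1 libraries than in any siCT library, and ATPIF1 is lower.

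CYCS, cytochrome c itself, had 125, 124 and 145 CPM in siPRMT1 cells with ethanol, against 30.6, 63.4 and 20.7 CPM in siCT cells with ethanol, and 103, 148 and 105 CPM in siPRMT1 cells with R5020, against 27.1, 41.8 and 46.4 CPM in siCT cells with R5020. All siPRMT1 libraries exceeded all siCT libraries (log2 fold change 1.78 ± 0.34 SE, adjusted p = 0.00227 in ethanol, and log2 fold change 1.62 ± 0.34 SE, adjusted p = 0.004499 in R5020), whereas CYC1, its partner in complex III, was not called (log2 fold change 0.20 in ethanol). ATPIF1, the inhibitor of ATP hydrolysis by the synthase, fell, with 60.99, 56.6 and 53.98 CPM in siPRMT1 cells with ethanol, against 79.1, 87.2 and 71.8 CPM in siCT cells with ethanol (log2 fold change -0.47, adjusted p = 0.0144 in ethanol, and log2 fold change -0.64, adjusted p = 0.003803 in R5020). LRPPRC, which stabilises mitochondrial mRNA, had 135, 140 and 148 CPM in siPRMT1 cells with ethanol, against 60.8, 80.6 and 51.3 CPM in siCT cells with ethanol (log2 fold change 1.13, adjusted p = 6.80e-04 in ethanol, and log2 fold change 1.10, adjusted p = 0.00103 in R5020). It was one of 13 complex IV assembly genes outside the name rule, of which 3 rose (LRPPRC, SCO1 and SCO2) and 1 fell (COA5) in ethanol, and 1 rose and 1 fell in R5020. Of 12 assembly factors of complexes II, III and the synthase, 5 rose in each medium and none fell: UQCC2, LYRM7, TTC19, TMEM70 and C6orf57 (SDHAF4). Of 7 further complex I assembly factors, TMEM126B rose in ethanol and none was called in R5020. Over all genes 13.6% were called higher and 19.2% lower in ethanol, and 11.5% and 14.2% in R5020.

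For the 13 chain genes encoded in mitochondrial DNA, the calls depended on the mitochondria-rich pair. In ethanol 3 of them (MT-ND3, MT-ATP6 and MT-ATP8) were called lower in siPRMT1 cells and none higher, with a median log2 fold change of -0.70. The background over all genes was 19.2% lower and 13.6% higher. Without the mitochondria-rich pair 5 were called lower and 1 higher (background 24.6% and 20.2%), with a median of 0.07. In R5020 none was called with the pair (median -0.29, background 11.5% higher and 14.2% lower). Without it 5 were called higher and 3 lower (median 0.24, background 19.5% and 19.9%).

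The promoters of 84 of the 102 members were found in the RefSeq table (GRCh38.p14), each 300 bases long, and searched on both strands. The NRF1 core GCATGCG was in 20.2% of them, against 5.1% of the promoters of 15843 protein-coding genes. It was in 36.0% of the 25 promoters of members that rose in ethanol and in 11.8% of the 51 not called. The GABPA core CCGGAAG was in 27.4% of member promoters, against 14.2% of protein-coding ones, and its share was 28.0% in those that rose and 27.5% in those not called. The YY1 core ATGGCGG was in 26.2% against 7.6%, and in 16.0% of those that rose and 27.5% of those not called. The ESRRA core AAGGTCA was in 10.7% against 3.1%. The progesterone receptor core TGTTCT was in 9.5% against 11.2%. Of the 5 promoters of members that fell in ethanol, 2 held the NRF1 core, 2 the GABPA core, 4 the YY1 core, 1 the ESRRA core and 0 the progesterone receptor core. No motif's letters contain those of another, the NRF1 core can match both strands at one place (CGCATGCG), and a match is a run of letters, not a bound site.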

How the data were processed

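RNA of T47D cells was measured by mRNA sequencing (a Lexogen SENSE mRNA kit, per the labels) in 12 libraries, 3 in each of 4 groups. The authors deposited raw read counts per gene symbol for each library. The submitters' processing notes name Bowtie2 2.3.2.2, HTSeq 0.9.1, DESeq2 and the genome build hg19, with no role or order; the sources used here do not give the annotation or strand setting.

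The tests used edgeR 4.0.16 (R 4.3.3): low counts were filtered by group (filterByExpr), libraries were TMM-scaled, the quasi-likelihood test was run on 4 group means over all 12 libraries, and p-values were Benjamini-Hochberg adjusted over 17727 genes, with calls under 0.05. SE is the size of the log2 fold change divided by the square root of F. CPM is TMM-scaled and not corrected for length, so levels are not compared between genes. Other fits used DESeq2 1.42.0 and limma 3.58.1. The scripts were tested on simulated data. No 2 libraries of the same group agreed within sampling noise, and pairs from different groups were not checked for this.

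Values per library are given for up to 6 highest and 6 lowest called fold changes per comparison, the smallest p-values where few were called, the most abundant member of each class and tissue forms. Other genes are named, some with values, to describe a class or account for a count. Not every member is given with values, and 1 result is not reported here. The members and gene lists were chosen with earlier results of these data known. Promoters come from RefSeq (GRCh38.p14), gene overlaps and pseudogenes from GENCODE release 29 (GRCh38), and alignments from blastn 2.17.0; neither is the build of the counts.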

Additional observations from a re-analysis of the deposited data

How the results depend on the processing

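Of 898 alternative values for 41 named results, 752 kept direction and side of the threshold, 118 lost the call, 9 gained one and 19 turned direction; the cause was not tested. Of the members called in ethanol (36), 10 were called with library totals alone (background 7.47% higher and 9.57% lower) and 18 with only the 6 libraries compared (7.65% and 11.7%), and leaving out a library gave 17 to 48. In R5020 (26), there were 5 with library totals alone (background 4.2% higher and 9.51% lower), 57 with voom quality weights (27.3% and 28.3%), 40 with only the libraries compared (15.8% and 18.3%) and 41 without the mitochondria-rich pair (19.5% and 19.9%), and leaving out a library gave 9 to 41. For R5020 against ethanol in siPRMT1 cells (2), the counts were 0 (background 5.06% and 6.58%), 22 (23.7% and 22.5%), 27 (23.2% and 21.6%) and 5 (15.8% and 13.5%) in the same order, with a range of 0 to 3. In siCT cells (1), they were 0 (background 4.9% and 4.01%), 2 (7.01% and 4.55%), 0 (3.71% and 1.48%) and 2 (11% and 9.15%) in the same order. DESeq2 gave 2 (7.48% and 5.36%). Summing member and pseudogene counts, an alternative chosen after seeing the data, also gave 2 (7.6% and 5.46%). Leaving out a library gave a range of 0 to 6. The interaction stayed at 0 calls under the alternatives run. Library totals moved the median over all genes to -0.18 for R5020 in siPRMT1 cells, against -0.00 with TMM, and to -0.10 in the interaction, against 0.04.

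NDUFV2 turned direction and became 0.72 in ethanol and 0.80 in R5020 with its pseudogene added. In ethanol NDUFS8 became -0.00795 with voom, -0.0514 without the pair and -0.000601 without siCT ethanol replicate 3, with a range of -0.000601 to 0.4 when a library was left out. NDUFAF3 became -0.155 with voom, -0.246 without the pair and ranged from -0.195 to 0.403 when a library was left out. SDHC became -0.0151 without the pair. ATP5SL became 0.0212 with RLE size factors, 0.0955 with library totals, 0.0205 with no filter, 0.0357 with DESeq2, 0.0255 with only the libraries compared, 0.00878 with the replicate block and 0.291 without siCT ethanol replicate 1.

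Same-numbered libraries did not deviate together: their correlations ran from -0.667 to 0.29 over 18 pairs, against -0.602 to 0.808 over 36 pairs with different numbers. With the replicate block 22 members rose and 4 fell in ethanol (background 11.8% and 16.1%), and 17 rose and 5 fell in R5020 (background 9.62% and 12.1%). Biological variation between replicates (common BCV) was 0.0752 in siPRMT1 R5020 and 0.0462 in siPRMT1 ethanol libraries, against 0.212 in siCT R5020 and 0.324 in siCT ethanol libraries. The siCT values include the mitochondria-rich pair, and the part of this spread in the calls was not tested.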
